A study of Homo sapiens with 3 samples.

Results

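The genes examined here encode inhibitors of the cyclin-dependent kinases (CDKs), the enzymes that drive the cell cycle. They are CDKN2A, CDKN2B, CDKN2C and CDKN2D of the INK4 family, CDKN1B and CDKN1C of the CIP/KIP family, and CDKN3. The 7 genes were chosen by name and read out in all 6 libraries of a table of 58333 genes, in which each symbol matched 1 Ensembl identifier. The other CIP/KIP gene was not analysed here. Expression was measured by poly(A)+ RNA-seq in Cal62, an established human thyroid tumor cell line, 2 libraries for each of 3 transfections made with the same lipid reagent. The control cells received a control siRNA (siControl), and the others received 1 of 2 siRNAs against ADAR1 (siADAR1 #1 or siADAR1 #2), an enzyme that converts adenosine to inosine in double-stranded RNA. The knockdown is transient and all libraries come from 1 cell line. The labels name 1 sample per transfection, and the 2 columns found for each are treated as biological replicates, as stated in the study's methods. The time from transfection to RNA isolation is not given for these libraries in the sources used here.

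INK4 proteins are built of ankyrin repeats, bind CDK4 and CDK6, and keep them from joining D-type cyclins. CIP/KIP proteins bind whole cyclin-CDK complexes, above all those of CDK2, through a conserved N-terminal region. Both hold the retinoblastoma protein in the state that represses E2F factors and so delay entry into S phase. CDKN3, also called KAP, belongs to neither family: it is a dual-specificity phosphatase that removes the activating phosphate from CDK2 and CDK1, and its transcript is itself abundant in dividing cells. The proteins are p27 (CDKN1B), p57 (CDKN1C), p15 (CDKN2B), p18 (CDKN2C) and p19 (CDKN2D), while CDKN2A encodes both p16 and, in another reading frame, the unrelated protein ARF. Loss of the INK4 locus on chromosome 9 is frequent in human tumors, and p27 is controlled to a large part by its degradation, which a transcript level does not show.

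The promoters of the members that changed are shown first. RefSeq promoters (GRCh38.p14) run from 250 bases before to 50 bases after an annotated start, and 9 of them were found for 6 members. CDKN1C had no entry. Printed 5' to 3' is the part before the start that no GENCODE exon of the same strand overlaps, with CCAAT boxes and the letters of the cell cycle homology region (CHR) in capitals.
CDKN1B (chr12:12717118-12717367, forward strand): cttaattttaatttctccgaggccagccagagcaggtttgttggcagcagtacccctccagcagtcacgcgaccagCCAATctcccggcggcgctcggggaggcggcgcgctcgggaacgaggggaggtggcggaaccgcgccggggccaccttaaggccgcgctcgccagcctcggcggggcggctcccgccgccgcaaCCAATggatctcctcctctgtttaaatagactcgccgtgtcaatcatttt
CDKN2C, the most upstream start (chr1:50960495-50960744, forward strand): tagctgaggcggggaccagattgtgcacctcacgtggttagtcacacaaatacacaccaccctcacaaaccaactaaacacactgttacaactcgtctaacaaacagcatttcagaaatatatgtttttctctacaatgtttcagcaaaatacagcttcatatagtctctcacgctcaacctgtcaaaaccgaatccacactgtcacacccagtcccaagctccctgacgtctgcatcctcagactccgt
CDKN2C, the most downstream start (chr1:50969995-50970244, forward strand): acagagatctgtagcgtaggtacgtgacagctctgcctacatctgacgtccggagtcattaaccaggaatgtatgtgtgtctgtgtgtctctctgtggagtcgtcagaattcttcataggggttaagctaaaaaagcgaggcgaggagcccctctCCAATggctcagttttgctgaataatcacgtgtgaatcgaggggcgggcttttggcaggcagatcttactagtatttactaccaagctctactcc
CDKN2D (chr19:10569060-10569229, reverse strand): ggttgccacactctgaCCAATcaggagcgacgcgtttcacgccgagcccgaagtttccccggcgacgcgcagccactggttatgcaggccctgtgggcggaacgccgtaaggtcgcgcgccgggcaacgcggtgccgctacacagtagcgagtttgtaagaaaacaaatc
CDKN3 (chr14:54396757-54396848, forward strand): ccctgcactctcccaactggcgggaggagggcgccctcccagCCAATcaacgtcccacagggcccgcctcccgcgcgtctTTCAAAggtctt
The pentamer CCAAT, searched on both strands, was found in the 300-base promoters of CDKN1B, CDKN2D and CDKN3 and at the downstream start of CDKN2C. It stands in 34.6% of all 35116 RefSeq promoters. The CHR letters TTTGAA, read on the other strand as TTCAAA, were found at 1 of the 9 promoters, that of CDKN3, 170 bases before the RefSeq start, against 15.2% of all promoters. The E2F words TTTGGCGC, TTTGCCGC, TTTCGCGC and TTTCCCGC and the FOXO word GTAAACA were found in 0 of the 9, against 3.32% and 3.42% of all promoters. No word searched contains another. These matches describe letters in short windows and were not tested as binding sites.

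Between 30114840 and 50029763 reads per library were assigned to genes, and the deposited log2 values were converted back to whole reads (or rounded estimates of them) and to normalized counts (reads divided by the library's size factor). A count of 0 allows up to 3 reads, which is 2.81 to 4.39 normalized counts depending on the library and covers counting error only. ADAR, the targeted gene, had 10906 and 11701 normalized counts in the siControl libraries, 1328 and 2246 with siADAR1 #1, and 1663 and 2928 with siADAR1 #2. It fell by 2.71 on the log2 scale with siADAR1 #1 (adjusted p = 0.00355, limma) and fell by 2.35 with siADAR1 #2 (adjusted p = 0.00153, limma). Of the thyroid markers, PAX8 had 2242 to 15557 reads per library and TSHR 33 to 84, while NKX2-1 had 0 reads in every library and thyroglobulin (TG) 0 to 55. Markers of other cells were low or absent (PTPRC 0 to 5 reads, CD3E 0, PECAM1 5 to 34, VWF 1 to 22), except CD68 with 225 to 1069 reads. Some of these markers moved with siADAR1 #2: the reads on PAX8 were 12789 and 15557 for siControl, 10984 and 12000 with siADAR1 #1 and 2242 and 3744 with siADAR1 #2, and CD68 had 225 and 409, 454 and 486, and 702 and 1069. Their part in the results was not tested. A gene was called changed with an adjusted p-value under 0.05 and a log2 fold change beyond 0.5 in either direction, in 1 limma fit of the 20247 genes with a mean of at least 10 normalized counts. The comparisons of both siRNAs with siControl share the siControl libraries. Fewer cells expressing a gene and less RNA per cell cannot be told apart in these bulk samples.

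Of the 7 CDK inhibitor genes, 5 passed the filter on low values. With siADAR1 #1, CDKN1B and CDKN1C rose and CDKN2C and CDKN3 fell, so 4 of the 5 were called, where 17.4% of all genes tested were. With siADAR1 #2, CDKN2D rose and CDKN3 fell, so 2 of the 5 were called, against 27.5% of all genes tested. Directly compared, CDKN1C was lower and CDKN2C and CDKN2D were higher in siADAR1 #2 than in siADAR1 #1, so 3 of the 5 were called, against 33.7% of all genes tested (17.3% higher and 16.5% lower). CDKN3 was called lower with each siRNA. The median log2 fold change of the 5 genes was -0.67 with siADAR1 #1 and 0.25 with siADAR1 #2, and that of all genes tested was -0.029 and -0.016. Without siControl replicate 1 the number called with siADAR1 #1 was 1, and without siControl replicate 2 it was 2.

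**Figure D1:**
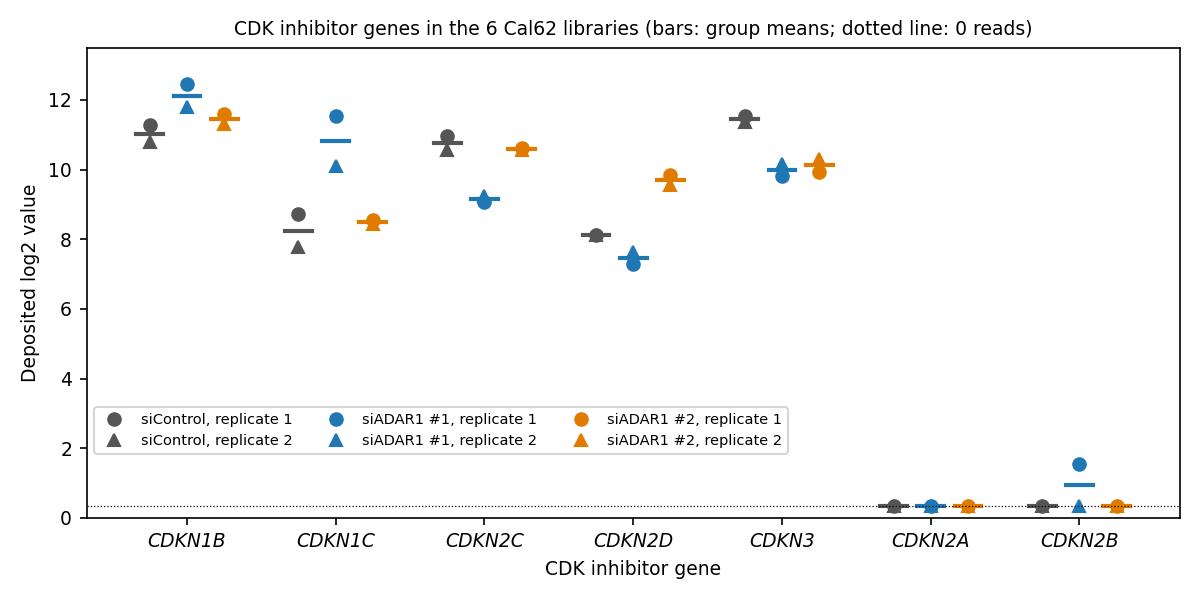
Deposited log2 value (y axis) of each CDK inhibitor gene (x axis) in the 6 libraries, with colors for the transfections, symbols for the replicates and bars for the means of 2 libraries. CDKN1C stands apart in siADAR1 #1 and CDKN2D in siADAR1 #2, CDKN3 is lower in all 4 siADAR1 libraries, and CDKN2A lies at the value for 0 reads in all 6.

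**Figure D2:**
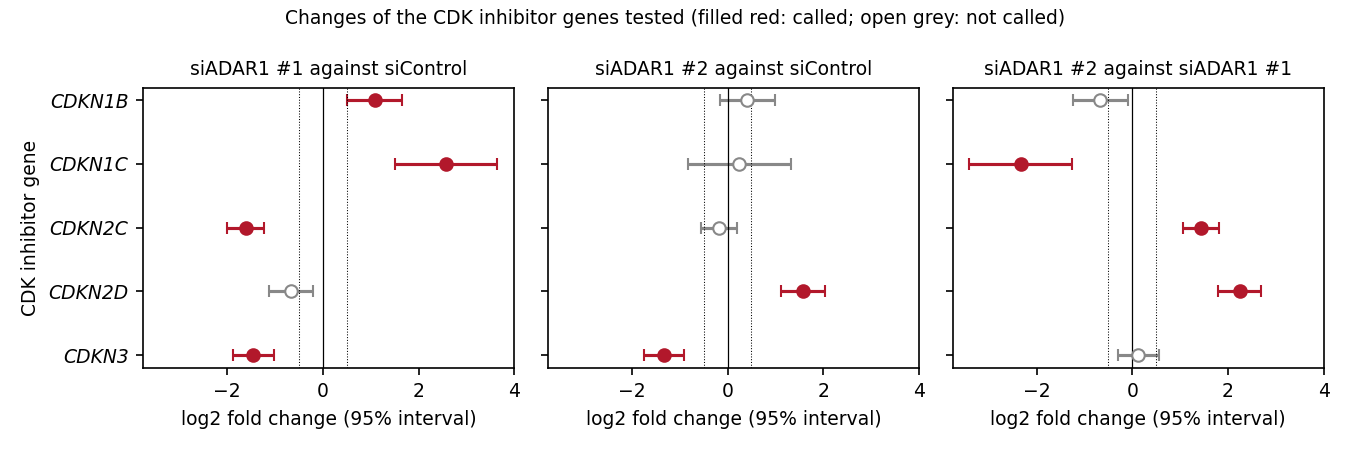
Log2 fold changes (x axis) of the 5 tested CDK inhibitor genes (y axis) in each comparison, with 95% confidence intervals from limma; filled red points were called and dotted lines mark changes of 0.5. The interval of CDKN2D lies below 0 with siADAR1 #1 and above 0 with siADAR1 #2.

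The CIP/KIP genes come first. CDKN1B (ENSG00000111276) lies on the forward strand of chromosome 12 (GRCh38) from 12685498 to 12722369, and its protein p27 restrains CDK2 in resting cells. It had 2483 and 1773 normalized counts in the siControl libraries, 5583 and 3532 with siADAR1 #1, and 3089 and 2534 with siADAR1 #2. Both siADAR1 #1 libraries lay above all others, and both siADAR1 #2 libraries lay above both siControl libraries. The mean was 2128 ± 502 (SD, n = 2) for siControl, 4558 ± 1450 for siADAR1 #1 and 2811 ± 392 for siADAR1 #2. The rise with siADAR1 #1 had a log2 fold change of 1.08 (standard error 0.25, adjusted p = 0.0229, limma). With siADAR1 #2 the log2 fold change was 0.41 (95% interval -0.16 to 0.99, adjusted p = 0.249, limma), which was not called. The difference between the siRNAs, -0.67 in siADAR1 #2 relative to siADAR1 #1, was not called either (adjusted p = 0.0689, limma), but was with the replicate number as a block (adjusted p = 0.00503) and without siADAR1 #1 replicate 2 (-0.996, adjusted p = 0.0181), over a range of 0.00503 to 0.331 for all alternatives. The rise with siADAR1 #1 was not called without siControl replicate 1 (1.32, adjusted p = 0.0714), siControl replicate 2 (0.84, adjusted p = 0.14) or siADAR1 #1 replicate 1 (0.75, adjusted p = 0.109), nor without a trend in eBayes (adjusted p = 0.0878), over a range of 0.00212 to 0.14. GPR19 overlaps CDKN1B on the other strand by 10710 bases and had 1 to 14 reads per library.

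CDKN1C (ENSG00000129757) lies on the reverse strand of chromosome 11 from 2883213 to 2885775, in an imprinted cluster, and encodes p57. It had 417 and 217 normalized counts in the siControl libraries, 2968 and 1098 with siADAR1 #1, and 373 and 343 with siADAR1 #2. Both siADAR1 #1 libraries were far above the other 4, which overlapped, and the siADAR1 #1 libraries also differed most from each other. The means were 317 ± 141 (SD, n = 2) for siControl, 2033 ± 1322 for siADAR1 #1 and 358 ± 21.4 for siADAR1 #2. The log2 fold change with siADAR1 #1 was 2.57 (standard error 0.46, adjusted p = 0.0109, limma), a fold of 5.95 and the 77th largest rise among the genes tested. With siADAR1 #2 it was 0.25 (95% interval -0.83 to 1.32, adjusted p = 0.731, limma), and it was -0.22 without siControl replicate 2. The transcript was lower in siADAR1 #2 than in siADAR1 #1 by a log2 difference of -2.33 (standard error 0.46, adjusted p = 0.0064, limma). The rise with siADAR1 #1 was 1.86 without siADAR1 #1 replicate 1 and 3.29 without replicate 2, was not called without siControl replicate 1 (3.04, adjusted p = 0.0578) or replicate 2 (2.11, adjusted p = 0.0813), and was not called without a trend in eBayes (adjusted p = 0.0566). Its adjusted p-value ranged from 0.00159 to 0.0813 over the alternatives that kept the siRNAs apart. With both siRNAs as 1 group the adjusted p-value of CDKN1C was 0.534 (limma).

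Of the INK4 genes, CDKN2C and CDKN2D were expressed and moved differently with the siRNAs. CDKN2C (ENSG00000123080) lies on the forward strand of chromosome 1 from 50960745 to 50974634 and encodes p18, an inhibitor of CDK4 and CDK6. It had 1978 and 1526 normalized counts in the siControl libraries, 531 and 602 with siADAR1 #1, and 1575 and 1500 with siADAR1 #2. Both siADAR1 #1 libraries lay well below the other 4, and the siADAR1 #2 libraries lay at or near the lower siControl library. The mean fell from 1752 ± 319 (SD, n = 2) in siControl to 566 ± 49.9 in siADAR1 #1 and was 1537 ± 53.1 in siADAR1 #2. With siADAR1 #1 the log2 fold change was -1.62 (standard error 0.16, adjusted p = 0.00302, limma), and it was called under every alternative that kept the siRNAs apart (adjusted p from 0.00125 to 0.0462). With siADAR1 #2 it was -0.18 (95% interval -0.56 to 0.21, adjusted p = 0.467, limma). The siRNAs differed by 1.44 (standard error 0.16, adjusted p = 0.000702, limma), higher with siADAR1 #2.

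CDKN2D (ENSG00000129355) lies on the reverse strand of chromosome 19 from 10566460 to 10569059 and encodes p19, also an inhibitor of CDK4 and CDK6. It had 278 normalized counts in each siControl library, 154 and 196 with siADAR1 #1, and 911 and 759 with siADAR1 #2. The groups did not overlap, with siADAR1 #1 lowest and siADAR1 #2 highest. The means were 278 ± 0.54 (SD, n = 2), 175 ± 29.5 and 835 ± 107. CDKN2D rose with siADAR1 #2 by a log2 fold change of 1.57 (standard error 0.20, adjusted p = 0.00133, limma), a fold of 2.97. With siADAR1 #1 the log2 fold change was -0.67 (standard error 0.20) and just missed the threshold (adjusted p = 0.051, limma). It was called with the replicate number as a block (adjusted p = 0.0492), with a filter at 50 normalized counts (adjusted p = 0.0429) and without siADAR1 #1 replicate 2 (-0.84, adjusted p = 0.0398), over a range of 0.0398 to 0.215. The difference between the siRNAs was 2.24 (standard error 0.20, adjusted p = 0.000323, limma), a fold of 4.72 in favor of siADAR1 #2, and it was called under every alternative tried (adjusted p from 0.000137 to 0.00622).

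CDKN2A (ENSG00000147889, reverse strand of chromosome 9, from 21967752 to 21995301) had 0 reads in all 6 libraries. CDKN2B (ENSG00000147883, reverse strand, from 22002903 to 22009305) had 1 read in siADAR1 #1 replicate 1 and 0 in the other 5. Neither passed the filter and no fold change is given. At this depth neither was detectable, and both p16 and ARF, which the table does not separate, fall under the CDKN2A value. Other genes of the same region were read. MTAP, the methylthioadenosine phosphorylase gene whose start lies 193 kb from that of CDKN2A, had 265 to 597 reads per library. CDKN2B-AS1, a long noncoding RNA that overlaps both genes on the other strand, had 4 to 19 reads, and DMRTA1, 452 kb away on the other side, had 73 to 133. Whether the counting used strand is not given in the sources used here. Also not given is how reads on bases shared by overlapping genes were counted. Its part in the values of CDKN2A and CDKN2B was not tested. Of the 21 other annotated genes with a start within 500 kb of CDKN2A, 7 had a mean of at least 10 normalized counts and 7 had 0 reads in every library. These neighbors were read out by position, and MTAP and DMRTA1 were named after their values were seen.

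**Figure D3:**
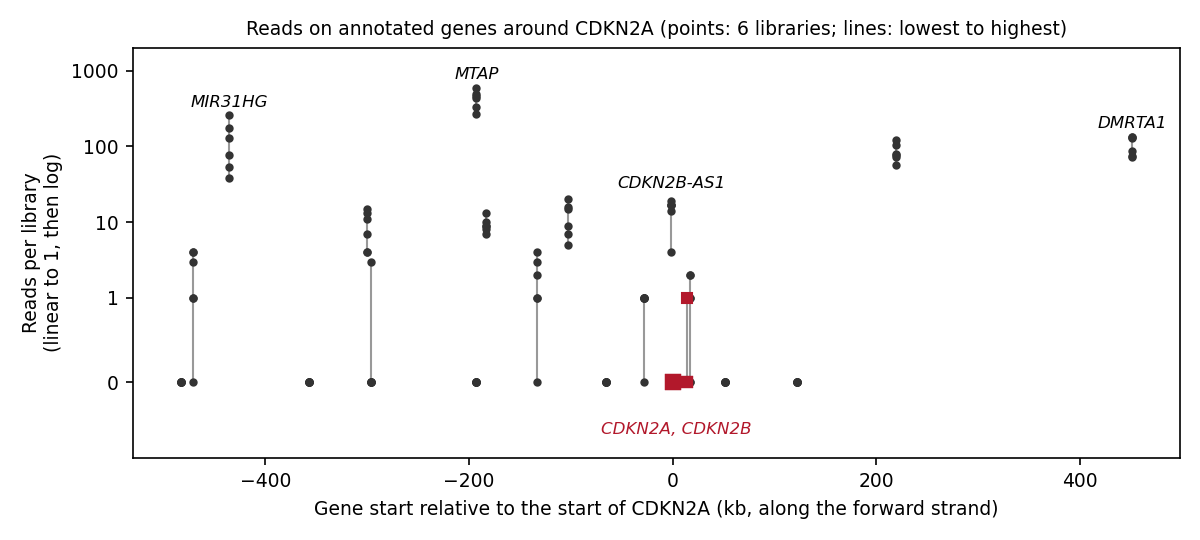
Reads per library (y axis, linear to 1 and logarithmic above) on annotated genes around CDKN2A by the distance of their start (x axis, kb); points are libraries and red squares are CDKN2A and CDKN2B. MTAP on one side and DMRTA1 on the other had between 73 and 597 reads in every library, while CDKN2A had 0 and CDKN2B at most 1.

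CDKN3 (ENSG00000100526), the phosphatase gene, lies on the forward strand of chromosome 14 from 54396849 to 54420218. It had 2979 and 2632 normalized counts in the siControl libraries, 901 and 1153 with siADAR1 #1, and 979 and 1263 with siADAR1 #2. All 4 siADAR1 libraries were under both siControl libraries, and the siRNAs overlapped. The mean was 2805 ± 246 (SD, n = 2) for siControl, 1027 ± 179 for siADAR1 #1 and 1121 ± 201 for siADAR1 #2. It fell by 1.46 on the log2 scale with siADAR1 #1 (standard error 0.18, adjusted p = 0.0041, limma) and by 1.33 with siADAR1 #2 (standard error 0.18, adjusted p = 0.00191, limma). The difference between the siRNAs was 0.13 (95% interval -0.30 to 0.55, adjusted p = 0.634, limma). Without siControl replicate 1 the fall with siADAR1 #1 was -1.37 and was not called (adjusted p = 0.0558, over a range of 0.0018 to 0.0558), while the fall with siADAR1 #2 was called under every alternative that kept the siRNAs apart (0.000845 to 0.0263). When the siADAR1 #1 and siADAR1 #2 libraries were joined into 1 group of 4, limma called 0 of the 5 genes, and CDKN3 had the smallest adjusted p-value of them, 0.11 (log2 fold change -1.39, unadjusted p = 0.000291). It was the only 1 of the 5 with an unadjusted p-value under 0.05 in that fit. Over all genes tested 0 were called in it and 2869 had an unadjusted p-value under 0.05.

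To compare levels between genes, normalized counts were divided by the length of the Ensembl canonical transcript. In siControl CDKN3 was highest with 3543 and 3129 normalized counts per kb, followed by CDKN2C with 1988 and 1534 and CDKN1B with 1030 and 735. CDKN2D with 195 in each library and CDKN1C with 235 and 123 came last, and these last levels overlapped. CDKN3 stood at the 95.1 percentile of the 20099 tested genes with a known length and CDKN1C at the 53.0 percentile. In siADAR1 #1 the order of the means changed to CDKN1B (1890 per kb), CDKN3 (1221), CDKN1C (1147), CDKN2C (569) and CDKN2D (123). In these libraries the range of CDKN1C, 619 to 1674, overlapped those of CDKN1B and CDKN3. In siADAR1 #2 CDKN2C was highest (1545 per kb), then CDKN3 (1332), CDKN1B (1166), CDKN2D (586) and CDKN1C (202). CDKN3, from 1164 to 1501 in siADAR1 #2, overlapped CDKN1B but not CDKN2C, whose lower library had 1507. The lengths matter here: divided by all annotated exons in place of the canonical transcript, the order in siControl was the same, but CDKN1C (820 per kb) was the highest in siADAR1 #1 and CDKN3 (613) in siADAR1 #2.

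As a share of the members' summed level per kb, CDKN3 took 50.7% and 54.7% of the siControl sum, 18.8% and 32.7% with siADAR1 #1, and 23.9% and 31.4% with siADAR1 #2. CDKN1B and CDKN1C were the leading rises in share with siADAR1 #1. CDKN1B had 14.7% and 12.9% in siControl and 40.6% and 34.9% in siADAR1 #1, and CDKN1C had 3.37% and 2.14% in siControl and 29.4% and 14.8% in siADAR1 #1. In siADAR1 #2 CDKN2D had 13.1% and 11.1%, against 2.79% and 3.42% in siControl. CDKN1B had 26.3% and 22.0% in siADAR1 #2, although its level was not called changed with this siRNA. A share also rises where the level of another member falls. The summed level was 6990 and 5716 normalized counts per kb in siControl, 5703 and 4198 with siADAR1 #1, and 4877 and 4786 with siADAR1 #2, and was not tested. These shares compare transcripts within a library and do not depend on its scaling.

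**Figure D4:**
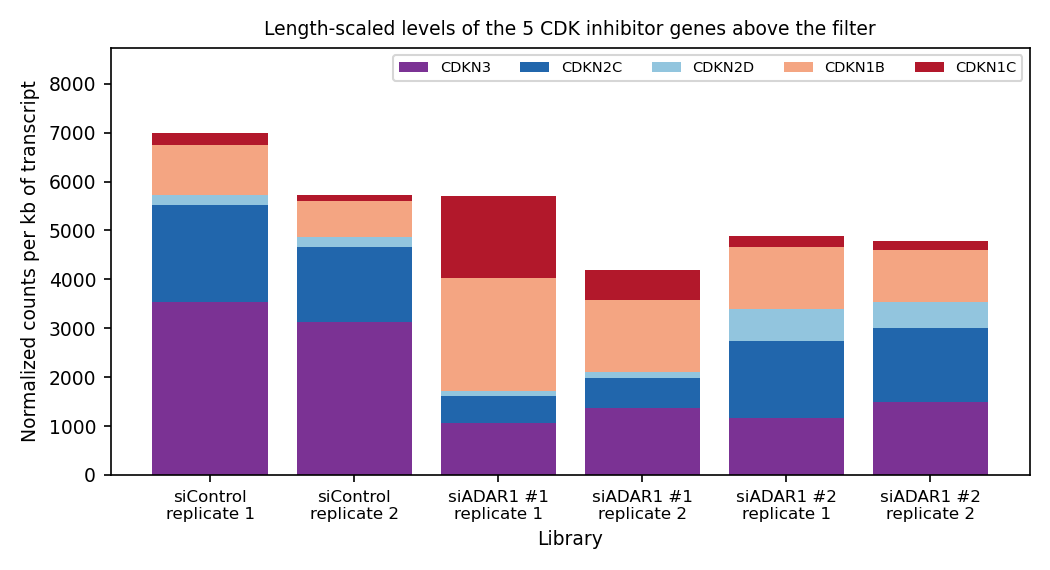
Normalized counts per kb of canonical transcript (y axis) of the 5 CDK inhibitor genes that passed the filter, stacked for each library (x axis). CDKN3 is the largest part in both siControl libraries, CDKN1B and CDKN1C grow in siADAR1 #1, and CDKN2D grows in siADAR1 #2.

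Across the 6 libraries, which fall into 3 groups of 2 and so are not independent points, the log2 values of CDKN1B and CDKN1C had a Pearson r of 0.95 with each other and of -0.81 and -0.90 with those of CDKN2C. CDKN2D and CDKN3 had a Pearson r of -0.14. The genes most like each member were taken from the 3 with the highest Pearson r over the 6 libraries among 20246 genes. For CDKN1B they were ANKRD46, RAB3GAP1 and PDE4D (r from 0.99 to 1.00), for CDKN1C LCOR, RALGAPB and OSBPL10 (each 0.99), and for CDKN2C VPS52, PPP3CC and CNTRL (each 1.00). For CDKN2D they were XPA and LAMP1 (each 1.00), and for CDKN3 NETO2, PKIA and PAICS (each 1.00). With 6 libraries such values are common: 801 genes had an r above 0.95 with CDKN2D and 130 with CDKN1B.

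The genes through which these inhibitors act, and those that set their levels, were taken as 5 lists written from general knowledge. Of the 13 kinases and cyclins that the inhibitors bind, 11 were tested (CCND2 had at most 4 reads and CCNA1 at most 13). With siADAR1 #2, 7 fell and 1 rose, where 16.0% of all genes tested fell and 11.6% rose. With siADAR1 #1, 3 fell and 2 rose, where 11.0% of all genes tested fell and 6.39% rose. The median log2 fold change was -0.23 with siADAR1 #1 and -0.99 with siADAR1 #2. CDK6, a direct partner of the INK4 proteins, fell with both (-1.04, adjusted p = 0.0113, and -1.65, adjusted p = 0.00101, limma). CCND3, the gene of cyclin D3, rose with both (0.51, adjusted p = 0.0281, and 0.77, adjusted p = 0.00354, limma). CCNE1, the gene of cyclin E1, rose with siADAR1 #1 (0.81, adjusted p = 0.0166, limma) and had a value of 0.0033 with siADAR1 #2. CCND3 and CCNE1 were named after their values were seen. CCND1, the gene of cyclin D1, had 43376 and 40136 normalized counts in the siControl libraries, 40949 and 36429 with siADAR1 #1, and 17211 and 18217 with siADAR1 #2. It fell with siADAR1 #2 (-1.24, adjusted p = 0.000465, limma) and its value with siADAR1 #1 was -0.11 (adjusted p = 0.518). CCNB1 and CCNA2, the genes of the mitotic cyclin B1 and of cyclin A2, fell with siADAR1 #2 (-1.61 and -1.05, adjusted p = 0.000482 and 0.00156, limma), and with siADAR1 #1 had values of -0.36 and -0.24 that were not called. Without siControl replicate 1 the number called with siADAR1 #1 was 0 (CDK6 then had an adjusted p of 0.061), and without siControl replicate 2 or siADAR1 #1 replicate 1 it was 2.

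Of the 13 genes of pocket proteins, E2F and DP factors, the step after the kinases, 3 fell with siADAR1 #1 and 7 fell with siADAR1 #2, against 11.0% and 16.0% of all genes tested, and 0 rose, against 6.39% and 11.6%. The medians were -0.25 and -0.65. RB1, the gene of the retinoblastoma protein, had 7346 and 6220 normalized counts in the siControl libraries, 6686 and 6359 with siADAR1 #1, and 2339 and 2621 with siADAR1 #2. Its fall with siADAR1 #2 (-1.45, adjusted p = 0.000481, limma) was accompanied by falls of E2F7 (-1.60), RBL1 (-0.91) and TFDP2 (-1.20). With siADAR1 #1 the values were -0.052 for RB1, -0.35 for E2F7, -0.44 for RBL1 and 0.22 for TFDP2, and none was called. The genes that fell with siADAR1 #1 were E2F1 (-2.02, adjusted p = 0.00771), E2F2 (-1.45, adjusted p = 0.0125) and E2F8 (-1.62, adjusted p = 0.008, limma), named here because they are few and after their values were seen. With siADAR1 #2 their values were -0.84 (adjusted p = 0.0885), 0.48 (adjusted p = 0.228) and -0.65 (adjusted p = 0.102, limma), and were not called. These 3 calls became 0 without siControl replicate 1 and 0 without siControl replicate 2 (adjusted p up to 0.065 for E2F1, 0.0878 for E2F2 and 0.0715 for E2F8), and the 7 with siADAR1 #2 became 4 without siControl replicate 1 or siADAR1 #2 replicate 1.

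Genes of the turnover of p27 were read beside CDKN1B. Of 11 genes, 2 fell with siADAR1 #1 and 5 with siADAR1 #2, and 0 rose (median log2 fold changes of -0.10 and -0.48). In either direction 17.4% and 27.5% of all genes tested were called, and the count of 2 with siADAR1 #1 is near that share. SKP2, the receptor that brings p27 to its ubiquitin ligase, had 6742 and 5565 normalized counts in the siControl libraries, 4633 and 4682 with siADAR1 #1, and 3063 and 2372 with siADAR1 #2. It fell with siADAR1 #2 (-1.18, adjusted p = 0.00166, limma), and its value with siADAR1 #1 was -0.40 (adjusted p = 0.123). CKS1B, the cofactor of SKP2, fell with siADAR1 #2 (-1.33, adjusted p = 0.000706, limma) and had a value of 0.29 with siADAR1 #1. CCNF and CUL1 fell with both siRNAs, CCNF by values of -1.12 and -0.84 and CUL1 by values of -0.59 and -0.64. CUL1 was not called with siADAR1 #2 without siControl replicate 1 or siADAR1 #2 replicate 1 (adjusted p up to 0.0526). Without siControl replicate 1 the count with siADAR1 #1 was 0, without siControl replicate 2 or siADAR1 #1 replicate 1 it was 1, and without siADAR1 #2 replicate 1 the count with siADAR1 #2 was 3.

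Of the 10 genes listed under CDK phosphorylation, 1 rose and 1 fell with siADAR1 #1 and 4 fell with siADAR1 #2 (medians of -0.047 and -0.21). The share called over all genes tested was 17.4% and 27.5%, and the count of 2 with siADAR1 #1 is near it. CDC14A, a phosphatase gene, was the gene of this list with opposite calls. It rose with siADAR1 #1 (1.22, adjusted p = 0.0301, limma) and fell with siADAR1 #2 (-1.20, adjusted p = 0.0207, limma). It had 229 and 248 normalized counts in the siControl libraries, 631 and 490 with siADAR1 #1, and 74.8 and 139 with siADAR1 #2, and the groups did not overlap. PKMYT1, which places an inhibitory phosphate on CDK1, fell with both siRNAs (-0.94 and -1.001, adjusted p = 0.0183 and 0.00828). CDC25C and CDC25A, which remove such phosphates, fell with siADAR1 #2 (-1.66 and -0.77) and were not called with siADAR1 #1 (-0.23 and 0.16). The 2 calls with siADAR1 #1 became 0 without siControl replicate 1, siControl replicate 2 or siADAR1 #1 replicate 1, and the 4 with siADAR1 #2 became 2 without siControl replicate 1 and 2 without siControl replicate 2. The calls with siADAR1 #2 that were lost were those of CDC14A without siControl replicate 1, siControl replicate 2 or siADAR1 #2 replicate 1 (adjusted p up to 0.11), CDC25A without siControl replicate 1 (0.0613) and PKMYT1 without siControl replicate 2 (0.0669).

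Of the 21 regulators of transcription and chromatin known for these genes, 2 rose and 4 fell with siADAR1 #1, and 2 rose and 8 fell with siADAR1 #2 (medians of 0.034 and -0.21). Over all genes tested 6.39% rose and 11.0% fell with siADAR1 #1, and 11.6% rose and 16.0% fell with siADAR1 #2. ID1, an inhibitor of helix-loop-helix factors that activate INK4 genes, fell with both (-1.85, adjusted p = 0.00279, and -2.10, adjusted p = 0.000427, limma). CBX7, a Polycomb protein that represses the INK4 locus, had 303 and 327 normalized counts in the siControl libraries, 202 and 193 with siADAR1 #1, and 983 and 971 with siADAR1 #2. Like the values of CDKN2D, its values fell into 3 groups without overlap, with siADAR1 #1 lowest and siADAR1 #2 highest (-0.66, adjusted p = 0.0269, and 1.63, adjusted p = 0.000623, limma). The call of CBX7 with siADAR1 #1 was lost without any 1 of the 6 libraries (adjusted p up to 0.123), and its call with siADAR1 #2 was kept in each case. EED, of the Polycomb complex that contains EZH2, fell with siADAR1 #2 (-1.03) and had a value of 0.15 with siADAR1 #1. EZH2 itself fell with both (-0.86, adjusted p = 0.00594, and -0.63, adjusted p = 0.00824, limma). FOXO1, of a family that activates CDKN1B, fell with siADAR1 #2 (-1.07) and had a value of 0.079 with siADAR1 #1. FOXO3 and FOXO4 of this family were not called, with 0.37 and 0.60 in siADAR1 #2 and -0.20 and -0.25 in siADAR1 #1. EZH2, FOXO3 and FOXO4 were named after their values were seen. The 6 calls with siADAR1 #1 became 1, 2 and 3 without siControl replicate 1, siControl replicate 2 and siADAR1 #1 replicate 1, and the 10 with siADAR1 #2 became 6 without siControl replicate 1 and 5 without siADAR1 #2 replicate 1.

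**Figure D5:**
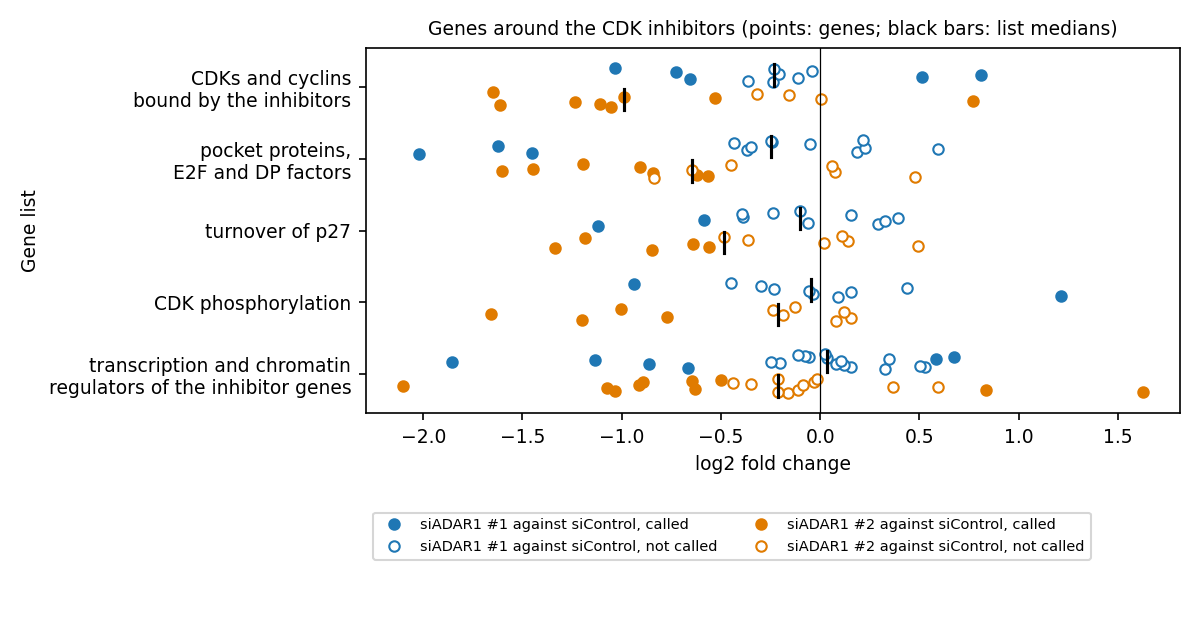
Log2 fold changes against siControl (x axis) of the genes of the 5 lists (y axis), 1 point per gene, filled where called and colored by siRNA, with black bars at the list medians. With siADAR1 #2 the median of the kinases and cyclins lies at -0.99 and that of the pocket proteins, E2F and DP factors at -0.65.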

How the data were processed

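Poly(A)+ RNA of Cal62 cells was sequenced in 6 libraries. In the authors' bcbio-nextgen workflow Atropos removed adapters, reads were counted per gene with featureCounts and also estimated from Salmon by Tximport, and DESeq2 normalized gene values with a preference for the Salmon estimates, on GRCh38 per the labels. Which counts entered the table is not given in the sources used here, so the reads below may be rounded estimates. Tool versions are not given in the sources used here. The deposited values are log2 values after a variance-stabilizing transformation. The lowest, 0.347736, is shared by all libraries and stands for 0 reads. Undoing the transformation gave whole reads (tolerance 0.1) for 100% of values. 0 columns were left unused.

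Symbols, positions and transcript lengths came from GENCODE release 44, which held 57830 of the 58333 identifiers. Log2 values were fitted with limma 3.58.1 in R 4.3.3 (3 groups, eBayes with trend, 3 residual degrees of freedom, two-sided, Benjamini-Hochberg adjustment over 20247 genes), and this fit was tested on simulated data. With 2 libraries per group the number of replicates limits precision. The members and lists were chosen with earlier results of these data known, and the lists were written from general knowledge. The genes named are the members, ADAR, at most 4 genes per list with the smallest adjusted p-values among those called against siControl, the 3 genes most like each called member, and genes that overlap a member, beside those marked as named after their values were seen. Some genes that the rule, the markers or the lists cover are not reported here. The replicate 2 minus replicate 1 differences over all genes tested were correlated at 0.11, 0.13 and 0.15 across the pairs of conditions. Over all genes the replicate numbers in the column names thus pair the libraries to a small extent, and the block was tried as an alternative. For CDKN1B and CDKN1C replicate 1 was above replicate 2 in each transfection. The block lowered their standard errors with siADAR1 #1 from 0.25 to 0.13 and from 0.46 to 0.28. The other alternatives were other filters, scalings and spread models, voom on the recovered reads, fits of 4 libraries, both siRNAs as 1 group and each library left out. Alternatives for single genes of the lists and neighbors were added after seeing the data.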

Additional observations from a re-analysis of the deposited data

Results flagged for a closer look

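The change against siControl differed between the siRNAs, by limma's test of siADAR1 #2 against siADAR1 #1, for 3 CDK inhibitor genes. The log2 difference was -2.33 for CDKN1C, 1.44 for CDKN2C and 2.24 for CDKN2D, positive where siADAR1 #2 was higher. ADAR itself had a difference of 0.35 (adjusted p = 0.406, limma). Of the other genes named, CBX7 was higher in siADAR1 #2 by 2.29. Among the kinases and cyclins the difference was -1.12 for CCND1, -1.25 for CCNB1, -0.82 for CCNA2 and -0.61 for CDK6, and among the pocket proteins and their partners it was -1.40 for RB1, -1.25 for E2F7 and -1.41 for TFDP2. It was -1.63 for CKS1B and -0.79 for SKP2, which act on p27, and -1.42 for CDC25C, -0.92 for CDC25A and -2.42 for CDC14A. EED and FOXO1 had differences of -1.19 and -1.15, FOXO3 and FOXO4 of 0.565 and 0.842, and CCNE1 of -0.81. For FOXO3, FOXO4 and CCNE1 the difference was not read out singly with a library left out. The differences of E2F1, E2F2 and E2F8 were 1.18, 1.93 and 0.98, and those of the neighboring genes SLC22A18, PHLDA2, FAF1, AP1M2 and KRI1 were 1.01, 0.85, 1.17, 2.75 and -0.83. With 1 library left out the calls of CDK6, E2F1, E2F8, PHLDA2 and SLC22A18 were lost in at least 1 case (adjusted p up to 0.161, 0.0863, 0.125, 0.152 and 0.109). Over all genes tested 33.7% were called in this comparison.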

How the results depend on the processing

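The 15 fold changes of single CDK inhibitor genes were recomputed under 17 alternatives each, all of which kept the siRNAs apart. The ranges of adjusted p-values given for the members cover these 17 and leave out the fit of both siRNAs as 1 group. Of 255 results, 238 kept their direction and their side of the threshold, 8 lost the call, 5 gained it and 4 reversed. The filters, the eBayes settings, the replicate block, the fits of 4 libraries and leaving out a library outside the comparison left fold changes unchanged. Under these alternatives the direction could not change, only the call. The reversals were of changes that had not been called: with a library left out, CDKN1C with siADAR1 #2 ranged from -0.22 (without siControl replicate 2) to 0.71, CDKN2C with siADAR1 #2 from -0.36 to 0.010 (without siControl replicate 1), and CDKN3 between the siRNAs from -0.058 (without siADAR1 #2 replicate 2, and -0.053 without siADAR1 #1 replicate 1) to 0.31. With both siRNAs as 1 group, the number of CDK inhibitor genes called was 0 in place of 4 and of 2, and without a trend in eBayes it was 2 in place of 4 with siADAR1 #1. With a library left out it lay between 1 and 5 with siADAR1 #1. The replicate block (pairing the libraries by number) gave 5, 2 and 4 genes called in the 3 comparisons, where it was 4, 2 and 3 without it, and changed no other call of a member. The list counts stayed within 1.5 times under voom and the replicate block in 30 of 30 cases, and in 68 of 90 cases with a library left out. With siADAR1 #1 these counts then ranged from 0 to 5 for kinases and cyclins, 0 to 4 for pocket proteins, E2F and DP factors, 0 to 2 for turnover of p27, 0 to 2 for CDK phosphorylation and 1 to 5 for the regulators. With siADAR1 #2 they ranged from 4 to 9 for pocket proteins, E2F and DP factors, 3 to 5 for turnover of p27, 2 to 4 for CDK phosphorylation and 5 to 10 for the regulators. Between the siRNAs they ranged from 6 to 10 for the regulators. Over all genes tested the number called with siADAR1 #1 was 3518, and 1478 without a trend in eBayes, 312 without siControl replicate 1, 1165 without siControl replicate 2 and 1291 when siADAR1 #1 replicate 1 was left out. For siADAR1 #2 it was 5573, and 3152 without siControl replicate 1 and 3105 without siADAR1 #2 replicate 1. Calls of single genes named from the lists were scored under 8 alternatives only: voom, the replicate block and the omission of any 1 library. Of these calls, voom and the replicate block lost 0. Under all 8 alternatives, 1 of 7 calls with siADAR1 #1, 16 of 20 with siADAR1 #2 and 14 of 15 between the siRNAs were kept. The remaining alternatives were not scored gene by gene for the lists. With both siRNAs as 1 group, 0 of all genes tested were called. Where a call changed, the cause was not tested. Depth limits CDKN2A and CDKN2B, whose absence below 3 reads per library is not shown.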

Other observations

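The genes next to the CDK inhibitor genes were read out by position, within 500 kb of each start, and those named here were chosen after their values were seen. FAF1, whose start lies 478 bases from that of CDKN2C on the other strand, fell with siADAR1 #1 like CDKN2C (-1.07, adjusted p = 0.0147, limma). AP1M2, an epithelial adaptor gene 18.3 kb from CDKN2D, moved in the same directions as CDKN2D, with -1.24 in siADAR1 #1 (adjusted p = 0.00932) and 1.51 in siADAR1 #2 (adjusted p = 0.00193, limma). KRI1, the tested gene nearest to CDKN2D with a start 3028 bases away, had values of the opposite signs that were not called, 0.37 in siADAR1 #1 (adjusted p = 0.14) and -0.46 in siADAR1 #2 (adjusted p = 0.0584, limma), and the siRNAs differed by -0.83 (adjusted p = 0.00486). Of the 40 tested genes around CDKN2D, 4 rose and 7 fell with siADAR1 #1, and 9 rose and 7 fell with siADAR1 #2, where 6.39% and 11.0%, and 11.6% and 16.0%, of all genes tested did.

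Around CDKN1C, 11 genes were tested, and 1 rose and 1 fell with siADAR1 #1 and 2 rose and 3 fell with siADAR1 #2, which may be read against the same shares of all genes. PHLDA2, an imprinted gene 43.6 kb away, fell with both siRNAs (-2.21, adjusted p = 0.0041, and -1.36, adjusted p = 0.00902, limma), while CDKN1C rose with siADAR1 #1. KCNQ1OT1, the imprinted antisense RNA of this cluster, had values of -0.0038 and 0.24 (adjusted p = 0.992 and 0.408, limma). CARS1 rose with both siRNAs (0.62, adjusted p = 0.0134, and 0.69, adjusted p = 0.00445, limma), and SLC22A18 rose with siADAR1 #2 (1.88, adjusted p = 0.00194) and had a value of 0.87 with siADAR1 #1 (adjusted p = 0.0539). Without siControl replicate 1 the calls with siADAR1 #1 of FAF1, AP1M2, PHLDA2 and CARS1 were lost, as were those of FAF1, AP1M2 and CARS1 without siControl replicate 2 (adjusted p up to 0.0958, 0.0696, 0.0546 and 0.0776). The call of PHLDA2 with siADAR1 #2 was lost without siControl replicate 1, siControl replicate 2 or siADAR1 #2 replicate 1 (adjusted p up to 0.0653). What these neighbors share with the CDK inhibitor genes was not tested.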
